A study of Homo sapiens with 16 samples.

Results

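The 4 libraries labelled as a CRISPR/Cas9 knockout of total Fn14 were compared with the 4 wild-type (WT) libraries, 8 of the 16 libraries of the series, over every gene that passed a filter on low counts. All cells were LX-2, an established line derived from human hepatic stellate cells. Stellate cells are the perivascular liver cells that turn into matrix-producing myofibroblasts after injury. The WT cells and the Fn14 knockout cells were kept for 24 h in reduced-serum endothelial basal medium with its growth supplements and then received PBS, the vehicle of the cytokine TWEAK, for 2 h. Neither group therefore had added TWEAK. The other 8 libraries, WT cells given 100 ng/mL TWEAK for 2 h and a knockout of the isoform Fn14alpha given PBS, helped to estimate the spread, and the Fn14alpha knockout is set beside the results below. Poly(A) RNA was sequenced, and the labels call the 4 libraries of each group biological replicates without saying what separated them, so the p-values measure the spread between these libraries, which may be technical. The sources used here do not give whether the knockout cells are 1 clone or a pool, and an effect of the genotype and a difference between cell lines cannot be told apart.

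Fn14, the product of TNFRSF12A, is a small receptor of the TNF receptor family whose ligand is TWEAK. It lacks a death domain and signals through TRAF adaptors to the canonical and non-canonical NF-kB pathways and to MAP kinases, which switch on chemokine, cytokine and adhesion genes. In injured liver it is induced in hepatocytes, progenitor cells and stellate cells.

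Total counts ran from 14273840 to 16888606 in WT and from 14092328 to 16417325 in the Fn14 knockout. Over these 8 libraries the leading principal component held 75.5% of the variance and parted the groups. On the next component, with 8.2% of the variance, WT replicate 4 (−24.1) and Fn14 knockout replicate 1 (−35.9) stood apart from the other 6 libraries, which lay between 5.5 and 17.6. Without these 2 libraries 8907 genes were called in place of 8472. Levels below are FPKM (fragments per kilobase of transcript, scaled to library size) as deposited, given as mean ± SD over 4 libraries. Fold values come from the log2 fold change of edgeR's quasi-likelihood fit, and calls are those with an adjusted p under 0.05 (Benjamini-Hochberg) over the 16029 genes tested. Because the fit and the FPKM scale the libraries differently, a fitted fold can differ from the ratio of the levels beside it.

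TNFRSF12A lies on the plus strand of chromosome 16 (GRCh38, 3018445 to 3022383, ENSG00000006327). It was read at 131, 133, 129 and 119 FPKM in WT and at 34.9, 35.5, 34.5 and 29.5 FPKM in the Fn14 knockout. Every knockout library lay below every WT library, and 28.5% of the WT level was left (log2 fold change −1.81 ± 0.08 SE, edgeR adjusted p = 2.85e-15, exact two-sided permutation p = 0.0286, the smallest that 70 splits of 4 against 4 allow). The level in the Fn14alpha knockout was 59.3 ± 6.43 FPKM, and the Fn14 knockout was lower still (−0.67 ± 0.08, edgeR adjusted p = 9.54e-08). In that contrast of the knockouts, which shares the Fn14 knockout libraries with the contrast against WT, 59.2% of all tested genes were called. Counts per gene do not show which transcripts remained or whether they encode protein.

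The gene next to the target changed in the opposite direction. HCFC1R1, which encodes a small binding partner of the transcriptional regulator HCFC1, lies on the minus strand and ends 241 bases beyond the end of TNFRSF12A (chromosome 16, 3022625 to 3024286), so that the genes are transcribed towards each other. It stood at 11.2, 12.2, 13.7 and 15.6 FPKM in WT and at 93.7, 74.7, 81.8 and 63.2 FPKM in the Fn14 knockout, 6.43-fold higher by the fit (2.69 ± 0.12, edgeR adjusted p = 5.53e-14). In the Fn14alpha knockout HCFC1R1 was at 13 ± 1.61 FPKM, and the difference between the knockouts passed the test (2.75 ± 0.13, edgeR adjusted p = 3.52e-14). THOC6, which encodes a subunit of an mRNA export complex, lies on the plus strand and overlaps HCFC1R1 (3024027 to 3027755). It was 1.78-fold higher. The sources used here do not give the strand setting of the counting, so reads of overlapping genes cannot be told apart, and whether transcription ran on past TNFRSF12A was not tested.

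Of the 36 genes tested within 500 kb of the start of TNFRSF12A, TNFRSF12A included, 4 were higher, 10 lower and 22 not called, with a median log2 fold change of −0.01. Over all tested genes 52.9% were called in either direction. MMP25, a membrane-anchored metalloproteinase, fell from 2.18 ± 0.199 to 0.0925 ± 0.0263 FPKM (−4.41 ± 0.20, edgeR adjusted p = 5.30e-15) and the cytokine gene IL32 from 51.9 ± 4.61 to 13.2 ± 1.38 FPKM (−1.86 ± 0.08, edgeR adjusted p = 5.41e-15). The locus held large changes of a few genes in both directions, around a median near 0.

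**Figure D1:**
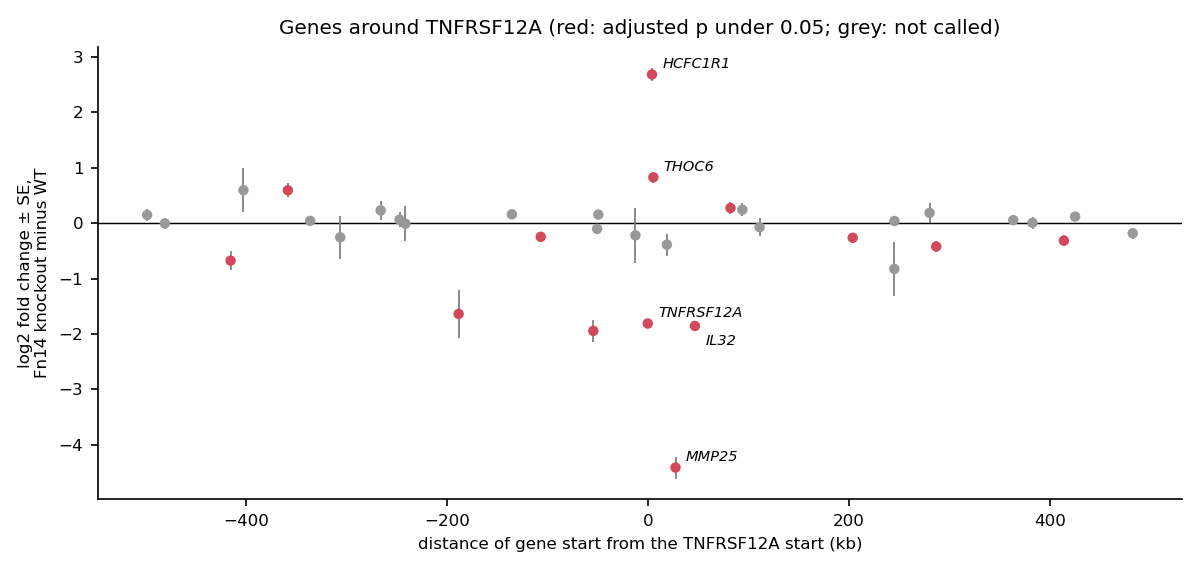
Log2 fold change with its standard error (Fn14 knockout minus WT, 4 libraries each) for the 36 tested genes within 500 kb of the TNFRSF12A start, against the distance of each gene's start in kb. Red points passed the test. HCFC1R1 and THOC6 lie above 0 right beside TNFRSF12A, while MMP25 and IL32 lie below.

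In all, edgeR called 4256 genes higher (26.6% of those tested) and 4216 lower (26.3%) in the Fn14 knockout. Among changes of 2-fold or more, 673 were increases (4.2%) and 1398 decreases (8.72%). With library totals in place of TMM scaling 36.0% of the calls were higher against 50.2%, because the median log2 fold change of all genes moved from −0.01 to −0.12. The 4 FPKM values of the knockout lay wholly above or wholly below the 4 of WT in 7048 genes (44%).

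Inflammatory transcripts were widely lower. The neutrophil-attracting chemokines that act on the receptor CXCR2 were lower in 6 of 6 tested cases (median log2 fold change −6.40), and interleukins and colony stimulating factors in 13 of 13 (median −2.54). Over all tested genes 26.3% were lower and the median was −0.01. The 6 chemokine genes stand side by side on chromosome 4 (73740519 to 74099196), and with an unnamed transcript among them they formed a run of 7 adjacent tested genes that were all at least 2-fold lower. That run lay in no broad shifted segment: the median of the neighbouring genes was 0.19 around CXCL8 and 0.17 around CXCL3.

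CXCL2 was at 19.3, 20.1, 21.0 and 22.8 FPKM in WT and at 1.01, 0.83, 0.71 and 0.85 in the Fn14 knockout, 22.4-fold lower (−4.49 ± 0.13, edgeR adjusted p = 5.38e-19). CXCL3 stood at 22.6 to 24.4 FPKM in WT and 0.38 to 0.69 in the knockout, 39.0-fold lower. Neither gene's groups came near each other. Both were also lower against the Fn14alpha knockout, in a contrast that shares the Fn14 knockout libraries with the contrast against WT. The log2 difference between the knockouts was −3.70 ± 0.13 for CXCL2 (edgeR adjusted p = 5.91e-17) and −4.21 ± 0.11 for CXCL3 (3.04e-19). The same test gave −7.34 ± 0.17 for CXCL8, −6.55 ± 0.20 for CXCL6, −5.54 ± 0.14 for CXCL1 and −2.24 ± 0.09 for CXCL5. These genes resemble each other, so reads shared among them could not be told apart in the counts.

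The promoters of these 6 chemokine genes are shown because the genes fell together. Each line gives the 120 bases before the annotated transcription start, 5′ to 3′ on the gene's own strand (RefSeq, GRCh38.p14), and capitals mark GGAATTTCC, a form of the kB site bound by NF-kB, searched on both strands.
CXCL8 (chr4:73740449-73740568, + strand): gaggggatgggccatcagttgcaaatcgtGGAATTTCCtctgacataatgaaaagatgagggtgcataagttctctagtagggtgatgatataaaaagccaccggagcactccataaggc
CXCL6 (chr4:73836558-73836677, + strand): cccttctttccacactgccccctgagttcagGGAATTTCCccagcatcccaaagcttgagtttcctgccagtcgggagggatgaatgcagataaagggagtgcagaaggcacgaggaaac
CXCL1 (chr4:73869273-73869392, + strand): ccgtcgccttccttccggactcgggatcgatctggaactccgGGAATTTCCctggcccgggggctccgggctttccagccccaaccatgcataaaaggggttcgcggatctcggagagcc
CXCL5 (chr4:73998678-73998797, - strand): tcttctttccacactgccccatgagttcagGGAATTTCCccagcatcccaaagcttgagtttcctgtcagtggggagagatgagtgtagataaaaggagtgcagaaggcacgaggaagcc
CXCL3 (chr4:74038690-74038809, - strand): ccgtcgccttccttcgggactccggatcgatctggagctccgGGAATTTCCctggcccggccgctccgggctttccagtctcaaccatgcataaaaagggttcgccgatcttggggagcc
CXCL2 (chr4:74099196-74099315, - strand): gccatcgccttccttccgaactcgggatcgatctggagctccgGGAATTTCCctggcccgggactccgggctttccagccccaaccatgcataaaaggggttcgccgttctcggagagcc

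All 6 held the motif once in the 250 bases searched, starting 77 to 91 bases before the start. Among 35116 promoter windows of that length 145 held it (0.413%). Of 11359 tested genes with a window, the 62 that held the motif were lower in 27 cases and higher in 12 (43.5% lower, 19.4% at least 2-fold lower, median −0.18). Over all 11359 such genes 27.8% were lower and 7.84% at least 2-fold lower. The 62 include these 6 genes. The 56 others were lower in 37.5% of cases and at least 2-fold lower in 10.7% (median −0.14). A match describes the sequence and does not show that a factor was bound there.

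CSF3, which encodes the granulocyte growth factor G-CSF, was at 5.71, 5.44, 6.58 and 6.76 FPKM in WT. In the Fn14 knockout 1 count was left over the 4 libraries against 857 in WT, a ratio of 770-fold (95% counting interval 138 to 30450, which covers counting error only). IL1A fell from 3.50 ± 0.165 to 0.095 ± 0.0208 FPKM (−5.00 ± 0.22, edgeR adjusted p = 3.12e-15), and in the Fn14alpha knockout IL1A was at 4.88 ± 0.585 FPKM. IL1A and IL1B lie close together inside a segment of chromosome 2 whose 97 genes had a median of −0.54. With the median of the neighbouring genes removed IL1A still stood at −4.47. CSF1, the macrophage growth factor, was 3.49-fold lower. Among the other chemokines 3 of 4 tested were lower and 1 higher: CCL20 was 29.9-fold and CXCL16 4.62-fold lower, whereas CXCL12, which holds stem cells and lymphocytes in their niches, rose from 0.2 ± 0.0183 to 2.15 ± 0.119 FPKM (3.52 ± 0.17, edgeR adjusted p = 1.47e-14).

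Genes that make up and restrain NF-kB were lower too. Of 21 NF-kB subunits and feedback regulators 16 were lower, 1 higher and 4 not called (median −1.31). Over all tested genes 26.3% were lower and 26.6% higher. TNFAIP3, the deubiquitinase A20 that shuts the pathway off, was at 9.71, 8.72, 9.28 and 8.14 FPKM in WT and 0.93, 1.04, 1.00 and 1.40 in the Fn14 knockout, 7.53-fold lower. TNFAIP3 was at 9.01 ± 0.701 FPKM in the Fn14alpha knockout (difference between the knockouts −2.89 ± 0.10, edgeR adjusted p = 3.07e-17). NFKB2, the p100 precursor of non-canonical signalling, was 2.89-fold lower, TNIP1, which binds A20, 2.66-fold, the mitochondrial dismutase SOD2 4.65-fold and the inhibitor NFKBIA 2.48-fold. The ligand, adaptors and kinases of Fn14 signalling (TWEAK, TRAF adaptors, IkB kinases and MAP kinases among them) rose in 11 of 18 cases and fell in 1 (median 0.32). The lower one was TRAF3, the adaptor that keeps the non-canonical pathway off (−0.77 ± 0.08, edgeR adjusted p = 1.54e-08). Of these 18 members 7 lay in a segment that shifted in their own direction, against 3269 of all 16029 tested genes. Among the 7 were MAPK9, MAPK8 and TRAF5. Their log2 fold changes of 0.90, 0.77 and 1.12 became 0.37, 0.34 and 0.72 once the median of neighbouring genes was removed.

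Adhesion molecules did not move as a group: 5 of 14 were lower and 3 higher (median −0.01), against 26.3% and 26.6% of all tested genes. The leukocyte-binding pair did fall. ICAM1 was at 46.3, 47.8, 45.4 and 36.0 FPKM in WT and at 0.99, 1.36, 1.67 and 1.04 in the Fn14 knockout, 32.1-fold lower, against 45.7 ± 2.18 in the Fn14alpha knockout. VCAM1 had 4 counts in the Fn14 knockout and 609 in WT, while its level in the Fn14alpha knockout was 6.31 ± 0.238 FPKM against 1.59 ± 0.136 in WT. The difference between the knockouts was −5.03 ± 0.12 for ICAM1 (edgeR adjusted p = 5.65e-20) and −8.88 ± 0.22 for VCAM1 (6.05e-20).

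Innate sensing and inflammatory effector genes fell in 16 of 22 cases and rose in 1 (median −1.17), against 26.3% and 26.6% of all tested genes. The acute phase protein SAA1 fell from 45.4 ± 5.92 to 3.76 ± 1.24 FPKM, its near-identical neighbour SAA2 from 3.43 ± 0.243 to 0.0625 ± 0.0562, and TNFAIP6, a hyaluronan-modifying protein, from 441 counts to 3 (ratio 132, 95% counting interval 44.9 to 642.9). Reads shared by SAA1 and SAA2 leave the split between them uncertain. PTX3, a soluble pattern receptor of the same list, stood at 200 ± 18.9 and 211 ± 12.6 FPKM and was not called (0.20 ± 0.08, edgeR adjusted p = 0.0509). Of 16 complement genes 7 were lower and 1 higher, beside the same shares of all tested genes. The proteases of the classical pathway, C1S and C1R, neighbours on chromosome 12, were 6.65-fold and 3.24-fold lower, in a segment with a median of −0.55, and C1S was still at −2.22 with the neighbours' median removed. C3, the central component, fell from 4.12 ± 0.493 to 0.02 ± 0.0082 FPKM. SERPING1, the inhibitor of these proteases, was at 8 counts in the Fn14 knockout and 132 in WT.

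**Figure D2:**
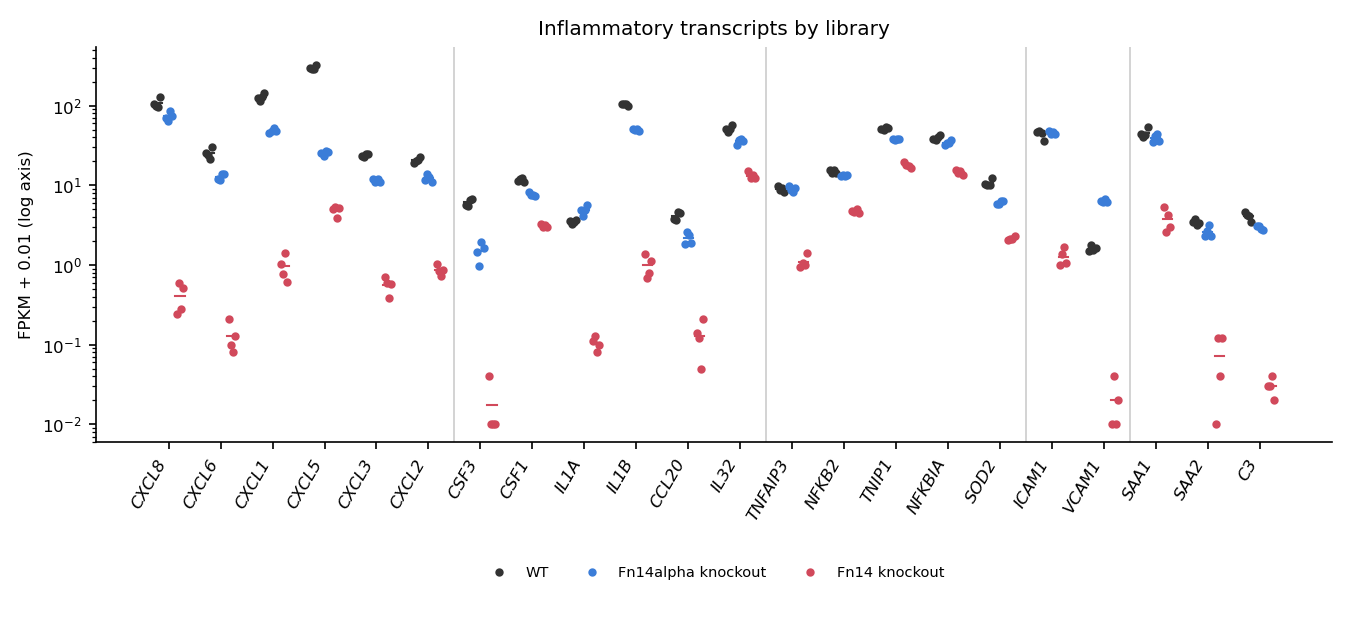
FPKM + 0.01 on a log axis in each library of WT (black), Fn14alpha knockout (blue) and Fn14 knockout (red) for 22 inflammatory genes, with a bar at each mean. For each of the genes drawn the 4 Fn14 knockout libraries lie below the 4 WT libraries, and for TNFAIP3, ICAM1 and IL1A the Fn14alpha knockout lies at or above the WT level.

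Among 37 tested genes of the interferon response 28 fell and 2 rose (median −1.06). Over all tested genes 26.3% were lower and 26.6% higher. The median of that list was −0.61 in the Fn14alpha knockout against the same WT libraries and −0.49 between the knockouts. Part of its fall was thus shared by both knockouts. IFI44 was at 4.13, 4.50, 4.16 and 5.13 FPKM in WT and at 0.33, 0.15, 0 and 0.15 in the Fn14 knockout (−4.66 ± 0.29, edgeR adjusted p = 2.30e-12). ISG15, a ubiquitin-like modifier, was at 12.4 to 14.3 FPKM in WT and 3.04 to 6.18 in the Fn14 knockout, 2.91-fold lower, and at 14 ± 2.84 in the Fn14alpha knockout (difference between the knockouts −1.57 ± 0.17, edgeR adjusted p = 3.53e-08). OAS3, a sensor of double-stranded RNA, was 3.79-fold and the ubiquitin ligase HERC6 3.23-fold lower. Neighbouring members fell together: IFIT2, IFIT3 and IFIT1 on chromosome 10 by 2.47, 1.39 and 1.1 (log2), and MX2 and MX1, antiviral GTPases on chromosome 21, by 4.02 and 1.93. For GBP2, a guanylate-binding protein, both knockouts were below WT and did not differ beyond their spread (−0.13 ± 0.12, edgeR adjusted p = 0.399). Antigen presentation genes fell in 14 of 22 cases and rose in 2, with the immunoproteasome subunit PSMB9 2.47-fold and the peptide trimmer ERAP1 1.89-fold lower.

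The promoters of 4 interferon response genes are printed because this group fell while most of its members lay outside shifted segments. In a segment of its own direction lay 1 of 37, against 3269 of all 16029 tested genes. Capitals mark the core of the interferon-stimulated response element, spelled TTTC, any 2 bases and TTTC, on either strand, and overlapping matches run together. Each line ends at the base before the transcription start (RefSeq, GRCh38.p14).
IFIT3 (chr10:89327821-89327996, + strand): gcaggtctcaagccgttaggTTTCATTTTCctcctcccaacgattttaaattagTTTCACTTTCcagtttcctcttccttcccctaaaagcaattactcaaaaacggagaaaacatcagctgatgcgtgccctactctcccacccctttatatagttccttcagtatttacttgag
IFIT1 (chr10:89392473-89392622, + strand): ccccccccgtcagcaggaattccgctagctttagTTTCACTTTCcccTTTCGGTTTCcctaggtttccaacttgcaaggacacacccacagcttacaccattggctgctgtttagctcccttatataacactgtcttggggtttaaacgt
ISG15 (chr1:1013347-1013496, + strand): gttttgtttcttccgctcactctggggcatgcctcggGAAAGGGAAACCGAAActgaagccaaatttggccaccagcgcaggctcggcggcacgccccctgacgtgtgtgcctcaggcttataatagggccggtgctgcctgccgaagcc
BST2 (chr19:17405631-17405780, - strand): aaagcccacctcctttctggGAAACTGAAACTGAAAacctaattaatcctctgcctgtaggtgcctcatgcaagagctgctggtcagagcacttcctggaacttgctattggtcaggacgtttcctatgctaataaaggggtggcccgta

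The motif was in 3.02% of the 35116 windows and in 18 of the 26 listed interferon genes with a window. The 378 tested genes that held it were lower in 31.7% of cases and at least 2-fold lower in 13.5%, against 27.8% and 7.84% of all tested genes with a window. That set includes the interferon genes chosen here. The 360 genes outside their list that held the motif were lower in 28.9% of cases and at least 2-fold lower in 10.8%.

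Fibrillar collagens and their processing enzymes fell in 17 of 27 cases and rose in 7 (median −0.35), against 26.3% and 26.6% of all tested genes. COL3A1 was at 23.9, 25.3, 23.4 and 22.3 FPKM in WT and 8.46, 7.93, 7.72 and 9.20 in the Fn14 knockout (−1.39 ± 0.07, edgeR adjusted p = 1.37e-13). COL1A2 fell from 1.48 ± 0.0932 to 0.160 ± 0.0294 FPKM, while COL1A1, whose product pairs with that of COL1A2 in collagen I, rose from 133 ± 7.96 to 196 ± 5.96 FPKM (0.67 ± 0.06, edgeR adjusted p = 8.18e-10). COL5A3, a chain of collagen V, was at 5 counts in the knockout and 264 in WT. The basement membrane chains COL4A1 and COL4A2 rose 3.42-fold and 2.46-fold. They are neighbours near the end of chromosome 13, in a segment of 133 genes with a median of 0.64, and with the neighbours' median removed their log2 fold changes of 1.77 and 1.30 became 1.03 and 0.52. ADAMTS2, which trims procollagen, was read at 5 counts over the 4 WT libraries and 2014 in the Fn14 knockout, inside a higher segment of chromosome 5. COL4A6, on the X chromosome, was 10.2-fold lower. COL6A1 stood at 195 ± 18.7 and 199 ± 8.45 FPKM and was not called (0.14 ± 0.06, edgeR adjusted p = 0.0611), although COL6A3, a chain of the same collagen VI, was read at 1.33 to 2.03 FPKM in WT and 42.9 to 57.3 FPKM in the Fn14 knockout.

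Matrix glycoproteins and proteoglycans rose in 14 of 38 cases and fell in 19, against 26.6% and 26.3% of all tested genes. Fibronectin, FN1, was at 129, 139, 116 and 94.3 FPKM in WT and at 326, 450, 459 and 501 in the Fn14 knockout, 3.93-fold higher (1.98 ± 0.12, edgeR adjusted p = 3.53e-11) and outside any segment. The lowest WT value and the lowest knockout value belonged to the libraries that stood apart, and the groups did not overlap. SPARC, a collagen-binding glycoprotein, rose 2.26-fold and THBS1, thrombospondin-1, 7.63-fold. In the other direction LAMA4, a laminin chain, fell 16.1-fold, the elastic fibre protein FBLN5 13.8-fold and the proteoglycan LUM 25.7-fold. LUM was lower in the Fn14alpha knockout too (0.320 ± 0.168 FPKM against 4.66 ± 0.5 in WT).

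Of the proteases and their inhibitors 14 of 30 were lower and 9 higher, against 26.3% and 26.6% of all tested genes. The collagenase MMP1 was at 53.4 to 67.2 FPKM in WT and 0.57 to 1.04 in the Fn14 knockout, 66.2-fold lower (−6.05 ± 0.12, edgeR adjusted p = 8.29e-22). MMP9, a gelatinase, fell 6.46-fold, the urokinase gene PLAU 6.07-fold, the lysosomal protease CTSS 68.5-fold and the urokinase inhibitor SERPINB2 121-fold. PLAU was at 47.5 ± 1.89 FPKM in the Fn14alpha knockout against 45.5 ± 2.35 in WT, and the knockouts differed by −2.63 ± 0.08 (edgeR adjusted p = 6.14e-18). TIMP1, an inhibitor of metalloproteinases on the X chromosome, was 2.18-fold higher, in a segment whose 57 genes had a median of 0.75. With that neighbourhood removed its log2 fold change of 1.12 became 0.35 (edgeR adjusted p = 0.0107, range over its alternatives 6.5e-50 to 0.0107).

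Markers of activated stellate cells and myofibroblasts rose in 12 of 20 cases and fell in 6 (median 0.43), against 26.6% and 26.3% of all tested genes. COL1A1, SPARC, TIMP1 and VIM were read at 91.2 FPKM or more in each of the 8 libraries, and VIM was at 378 ± 11.9 and 447 ± 14.9. Other markers of the type were low. COL1A2 and ACTA2 stood at a few FPKM or less. DES, with 19 counts over the WT libraries and 1 over the Fn14 knockout libraries, did not pass the count filter. These markers therefore do not settle the labelled cell type. The contractile genes TAGLN (25.4 ± 0.589 to 89.8 ± 10.5 FPKM), ACTG2 (7.93 ± 0.472 to 28.1 ± 2.33) and TPM1 (13.5 ± 0.761 to 37.9 ± 2.65) rose 3.84-, 3.84- and 3.03-fold. ACTA2, the smooth muscle actin used as the standard marker of activation, was at 2.53 to 3.14 FPKM in WT and 2.37 to 3.31 in the knockout. These ranges overlapped and ACTA2 was not called (0.10 ± 0.13, edgeR adjusted p = 0.572). Markers of quiescent stellate cells went both ways, 8 higher and 8 lower of 18, or 4 higher with the neighbours' median removed: the neurotrophin receptor NGFR was higher, and the retinol carrier RBP4 and the growth factor HGF were 5.17-fold and 26.2-fold lower.

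Targets of TGF-beta and SMAD signalling rose in 11 of 23 cases and fell in 4 (median 0.14). With library totals 10 rose and 6 fell (median 0.02), and with the neighbours' median removed 13 and 4. Targets of YAP and TEAD rose in 16 of 26 cases and fell in 6 (median 0.48). Over all tested genes 26.6% were higher and 26.3% lower. The median of the YAP and TEAD list was 0.41 in the Fn14alpha knockout against the same WT libraries and 0.12 between the knockouts, so its rise was largely shared. ANKRD1, a nuclear cofactor of contractile cells, was at 8.53, 8.17, 7.88 and 10.4 FPKM in WT and 130, 129, 113 and 141 in the Fn14 knockout, 15.9-fold higher (3.99 ± 0.19, edgeR adjusted p = 2.81e-12). The growth factor TGFB2 rose 9.73-fold and PMEPA1, a feedback inhibitor of TGF-beta signalling, 9.41-fold. For these 3 genes the Fn14alpha knockout lay between the WT and the Fn14 knockout levels, at 61.6 ± 2.21, 6.78 ± 0.716 and 1.34 ± 0.120 FPKM. CCN2, connective tissue growth factor, was 2.96-fold higher and, at 104 ± 6.53 FPKM, below the 141 ± 5.39 of the Fn14alpha knockout (−0.29 ± 0.11, edgeR adjusted p = 0.0255).

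**Figure D3:**
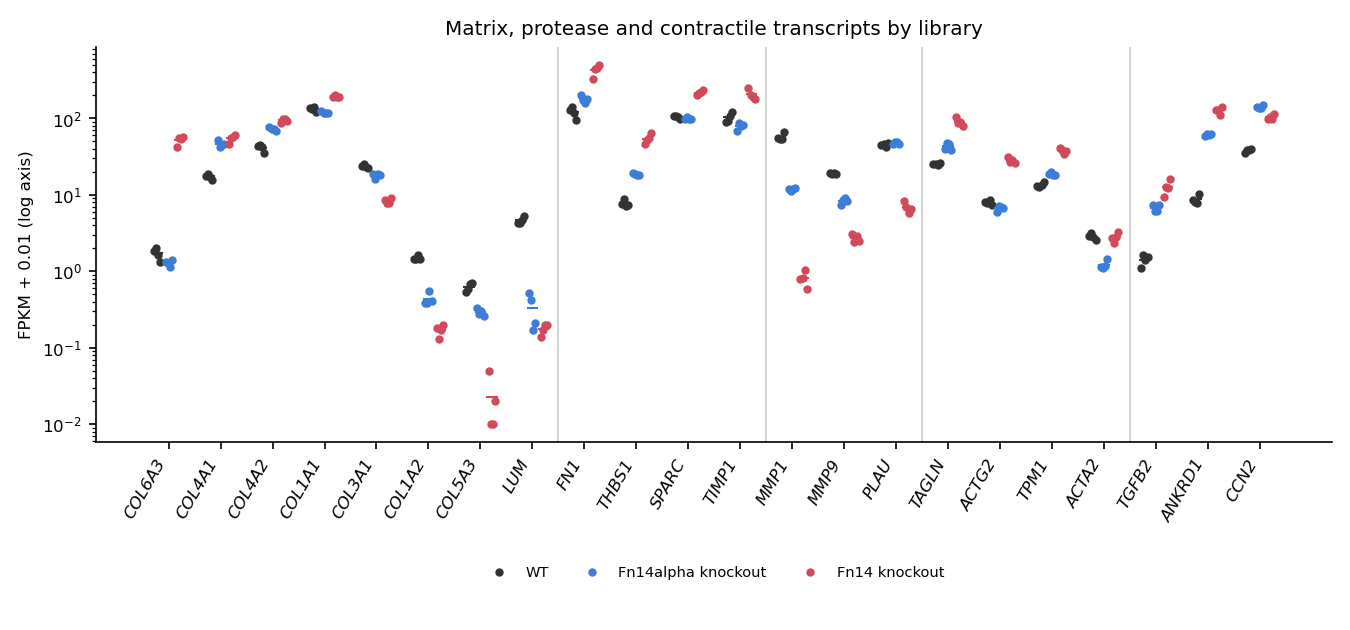
FPKM + 0.01 on a log axis in each library of WT (black), Fn14alpha knockout (blue) and Fn14 knockout (red) for 22 matrix, protease, contractile and growth factor genes, with a bar at each mean. COL6A3, FN1 and TAGLN lie above WT in the Fn14 knockout, COL1A2, LUM and MMP1 lie below, and ACTA2 overlaps with WT.

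Genes were then ordered along the chromosomes to part shifts of whole regions from changes of single genes. A broad segment was a run of at least 25 consecutive genes, each with a mean of at least 2 on the log2 CPM scale (counts scaled to library size), over which the running median of 25 genes was at least 0.3 in size. By this rule 31 segments held 2791 of 11416 genes (24.4%) and 661.2 Mb: 21 were higher with 2077 genes and 10 lower with 714. A stretch is split where the running median dips under 0.3 in size, so some of the 31 may be parts of 1 longer shift. On chromosome 2, for example, lower segments ended at 39437301 and 73227221 and the next began at 40097270 and 73729104. Their medians were 0.34 to 0.75 in size, and 61.8% to 94.7% of a segment's genes were called in its direction, as the rule favours. In each of the 31 segments the median of every Fn14 knockout library lay outside the range of the WT libraries, which deviated from their own mean by at most 0.09. The segments were chosen on these same libraries, so the rule favours this separation too, and it is no separate support.

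The strongest segment was on the X chromosome (30827442 to 49301461, 57 genes, median 0.75, lower and upper quartile 0.60 and 0.98), where the 4 knockout libraries stood at 0.76, 0.74, 0.74 and 0.68 above the WT mean. The start of chromosome 20 (270863 to 31577923, 107 genes) had a median of 0.74, a stretch of chromosome 3 (3126933 to 64003462, 302 genes) of 0.67, and chromosome 22 (15784959 to 50245023, 255 genes) was higher along nearly its whole gene-bearing length with a median of 0.46. On chromosome 1 a block of 76.3 Mb with 375 genes had a median of 0.48. Lower segments were found at the end of chromosome 16 (88382959 to 90044975, 34 genes, median −0.62), on chromosome 3 from 161429127 to its end (113 genes, −0.55), on chromosome 2 (99400475 to 131767404, 97 genes, −0.54) and from the start of chromosome 12 (14522 to 42459715, 151 genes, −0.55). On the linear scale these medians correspond to 1.68-fold for the X segment and 0.65-fold for that of chromosome 16. DNA copy number was not measured in these samples, and whether it moved with the segments was not tested.

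The Fn14alpha knockout had a median of at least 0.3 in the same direction in 3 of the 31 segments: on chromosome 12 (−0.51), on chromosome 6 between 42092233 and 49463253 (0.42 against 0.39 in the Fn14 knockout) and on chromosome 17 between 30477362 and 44830816 (0.32 against 0.44). In the other 28 it was under 0.3 in size. It was −0.29 in the chromosome 4 segment (−0.49 in the Fn14 knockout) and 0.22 in the chromosome 6 segment from 291630 (0.37). In the X segment it was −0.03, and in the chromosome 3 segment of 302 genes −0.01. The Fn14alpha knockout had broad shifts of its own. Over the 384 genes of the whole X chromosome its median was −0.70, against 0.09 in the Fn14 knockout. On chromosome 9 the medians were −0.26 and −0.01. Both medians were taken against the same WT libraries.

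**Figure D4:**
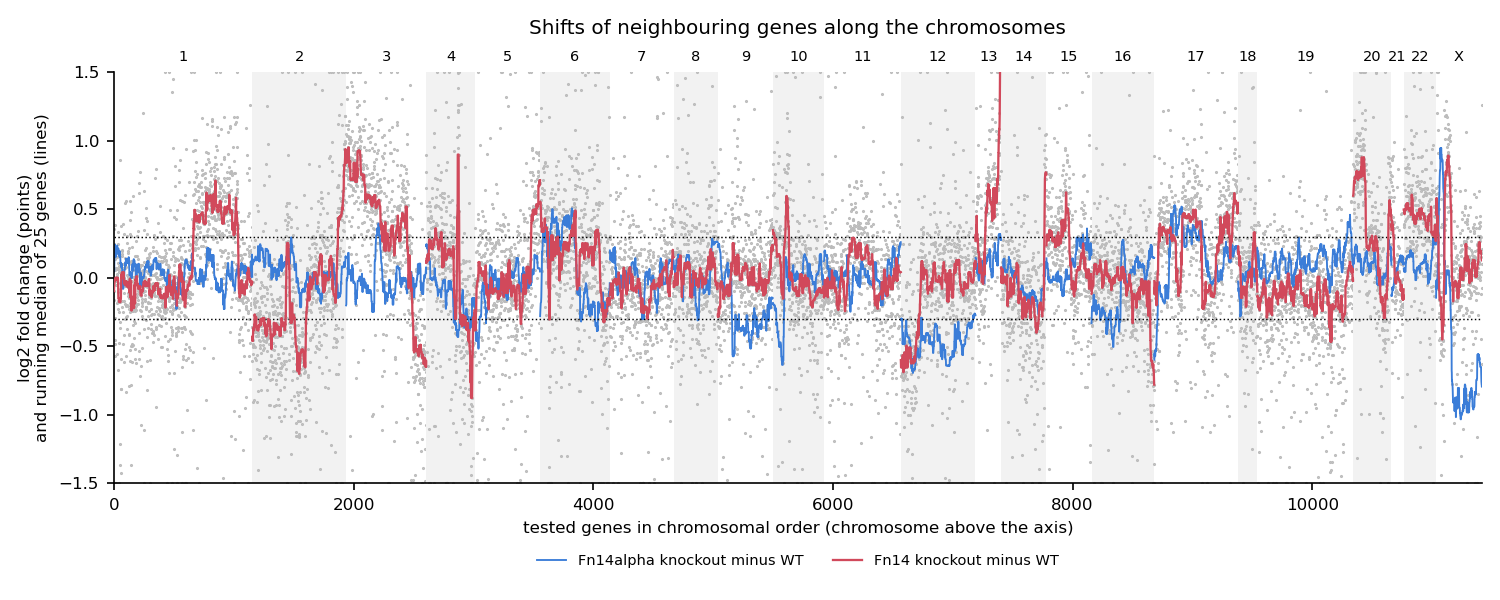
Log2 fold change of 11416 tested genes in chromosomal order (grey points, Fn14 knockout minus WT, drawn at the edge beyond ±1.5) with the running median of 25 genes for the Fn14 knockout (red) and the Fn14alpha knockout (blue), both against the same WT libraries. Dotted lines mark ±0.3. The red line leaves the dotted band for long stretches on chromosomes 1, 2, 3, 13, 20, 22 and X, and red and blue run together below it at the start of chromosome 12.

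Segments held 2602 (30.7%) of the called genes in their own direction, 33% of the calls under 2-fold and 23.6% of those of at least 2-fold. Several cell cycle genes were of this kind. Over 40 cell cycle genes 15 were lower, 11 higher and 14 not called, against 26.3% lower and 26.6% higher of all tested genes. Of the 40, 14 lay in a segment of their own direction, against 3269 of all 16029 tested genes. With library totals 23 were lower and 7 higher, with limma on FPKM 22 and 7, and with the neighbours' median removed 17 and 4. BUB1, a spindle checkpoint kinase on chromosome 2, was 2.07-fold lower, and −1.05 became −0.42 without its neighbours' median. BHLHE40, a transcriptional repressor on chromosome 3, was 2.47-fold higher, and 1.31 became 0.45. The pseudokinase TRIB3 on chromosome 20 was 1.75-fold higher and no longer passed once its neighbours' median was removed (0.09, edgeR adjusted p = 0.446, range over its alternatives 2.62e-19 to 0.446). A few genes went against their segment: JAG1, a Notch ligand on chromosome 20, was 1.99-fold lower amid genes with a median of 0.74, and LCP1, an actin bundler on chromosome 13, 2.16-fold lower.

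Shorter blocks were sought as at least 3 adjacent tested genes that were all called in 1 direction and at least 2-fold changed. Segments and clusters were sought on chromosomes 1 to 22 and X, clusters also on the mitochondrial genome. There were 71 of these local clusters, 48 lower and 23 higher, with 273 genes, of which 95 also lay in a segment of their direction. The cluster with the most genes, 17 over 1040.4 kb, was at the end of chromosome 13 (113297239 to 114337626) and rose by 1.04 to 3.32 on the log2 scale. It held GAS6, the ligand of the TAM receptor kinases, at 10.1 ± 0.53 FPKM in WT and 64.7 ± 7.6 in the Fn14 knockout (2.79 ± 0.08, edgeR adjusted p = 2.99e-19), and RASA3, a Ras GTPase-activating protein, 5.05-fold higher. GAS6 was at 10.4 ± 0.225 FPKM in the Fn14alpha knockout.

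Several lower clusters outside segments were gene families. On chromosome 5 (140834248 to 141195647) 15 adjacent tested genes of the protocadherin alpha and beta arrays, a pseudogene among them, cell surface molecules that give neurons their identity, were each at least 2-fold lower. PCDHB2 stood there at 3.27, 2.92, 3.75 and 3.16 FPKM in WT, at 0.69, 0.55, 0.31 and 0.43 in the Fn14 knockout and at 3.31 ± 0.311 in the Fn14alpha knockout. On the X chromosome (152133310 to 152769716) 9 adjacent genes, mostly of the cancer/testis families MAGEA and CSAG, were lower. Cancer/testis antigens as a list were lower in 9 of 10 cases (median −4.70), against 26.3% of all tested genes. The median of that list was −4.97 in the Fn14alpha knockout against the same WT libraries and −0.41 between the knockouts, so its fall was not particular to the Fn14 knockout. MAGEA12 fell from 17 ± 1.61 to 1.01 ± 0.274 FPKM and was at 23.1 ± 1.51 in the Fn14alpha knockout, whereas MAGEC2 was lower in the Fn14alpha knockout than in the Fn14 knockout (2.48 ± 0.21, edgeR adjusted p = 5.68e-10). The protocadherin and MAGEA genes have near-identical copies and the alpha protocadherins share exons, so the split of counts within these families is uncertain. At HOXD, the genes HOXD3 and HOXD4, positional regulators of the body axis, were lower. HOXD3 had 154 counts in WT and 2 in the knockout (ratio 69.2, 95% counting interval 18.8 to 576.3), and HOXD4 had 6 left (−4.11 on the log2 scale). On chromosome 4 a cluster inside a lower segment held the transcription factor HAND2 (4.16-fold lower) and the chromatin protein HMGB2, which fell from 227 ± 32.2 to 63.0 ± 8.65 FPKM.

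Some higher clusters held genes of the epidermis. The 7 genes of a run in the epidermal differentiation complex on chromosome 1 (152168125 to 153460651) were each at least 2-fold higher, all inside the higher segment of that chromosome. S100A7, an antimicrobial S100 protein of stressed skin, had 0 counts in WT and 0 in the Fn14alpha knockout. It had 6.20, 6.39, 5.11 and 4.13 FPKM in the Fn14 knockout, at least 60.5-fold higher at a floor of 3 counts over the group. S100A16 of the same segment rose from 67.4 ± 5.54 to 139 ± 16.4 FPKM, and of 12 tested S100 genes 8 were higher and 0 lower at an adjusted p under 0.05. With the neighbours' median removed 5 were higher and 2 lower. Keratin genes of 2 chromosomes rose as well. On chromosome 12 KRT6A was 13.6-fold and KRT5 4.18-fold higher, and KRT1 had 208 counts in the knockout and 1 in WT (ratio 232, 95% counting interval 41.1 to 9188). On chromosome 17 KRT14 was 2.58-fold and KRT17 3.39-fold higher. With KRT16 they lie inside a higher segment with a median of 0.44 (0.32 in the Fn14alpha knockout). With the neighbours' median removed the log2 fold changes of KRT14 and KRT17, 1.37 and 1.76, became 0.93 and 1.32. KRT16 had 3 counts in WT and 145 in the knockout (ratio 53.8, 95% counting interval 18 to 263.9). Of 11 tested keratinocyte markers 9 were higher and 0 lower by edgeR, against 26.6% and 26.3% of all tested genes. Levels were low: the summed FPKM of these markers was 12.3 to 15.5 in WT and 23.7 to 30.4 in the Fn14 knockout. KRT18, a keratin of simple epithelia, was 1.26-fold lower.

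Once segments and clusters were set aside, 1404 genes remained as changes of at least 2-fold in single genes, 1078 lower and 326 higher, 67.8% of all calls of that size. By this rule a single gene may still have 1 changed neighbour, and 1099 remained when 2 adjacent genes were enough for a cluster. The Y chromosome had been left out of both searches. It holds 7 of these 1404 genes, 6 of them lower, and 5 adjacent tested genes there were each at least 2-fold lower, a run long enough for a cluster. Of its 15 tested genes 8 were lower, 4 higher and 3 not called. Among the lower ones, EIF1AY had 1 count over the Fn14 knockout libraries and 1246 over WT, TXLNGY 2 and 735, and KDM5D 0 and 716. NLGN4Y had 1 and 516 counts, and UTY 0 and 351. Of the 1404 genes, 402 reached 2 FPKM in WT or the Fn14 knockout, 273 lower and 129 higher. Among the 25 genes with the largest decreases at 2 FPKM or more, 15 were single-gene changes, and among the 25 with the largest increases 6 were, while 15 of the latter lay in a higher segment. RGS4, a brake on G protein signalling, rose 20-fold and SLC24A3, a calcium exchanger, 33.4-fold, both within higher segments. KCNS3, a potassium channel subunit, rose from 0.14 ± 0.0849 to 2.49 ± 0.37 FPKM within a lower one. ESM1, an endothelial proteoglycan, was at 62.6, 64.3, 62.3 and 77.2 FPKM in WT and at 0.75, 0.81, 0.37 and 1.1 in the Fn14 knockout, 79.9-fold lower. GJA1, the gap junction protein connexin 43, rose in the opposite way from 1.17 to 1.67 FPKM in WT to 33.2 to 40.1. It was at 1.01 ± 0.0668 in the Fn14alpha knockout (difference between the knockouts 5.30 ± 0.10, edgeR adjusted p = 2.79e-21). GJC1, connexin 45, was 2.03-fold higher and PANX2, a pannexin channel, 4.94-fold lower. CAV1, the coat protein of caveolae, was 2.26-fold higher, in a cluster with CAV2.

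Of metabolic groups, cholesterol synthesis and SREBP targets rose in 20 of 33 cases and fell in 4 (median 0.26), while 12 were higher with the neighbours' median removed and 13 with limma on FPKM. The fatty acid elongase ELOVL6 rose 2.34-fold (8.15 ± 0.5 to 17.6 ± 1.75 FPKM) and the squalene epoxidase SQLE 1.60-fold, and both were below WT in the Fn14alpha knockout, at 4.36 ± 0.113 and 26.0 ± 0.938 FPKM. Genes of the unfolded protein response and ATF4 rose in 17 of 26 cases and fell in 6, while 11 were higher with the neighbours' median removed and 11 with library totals. The serine synthesis enzyme PSAT1 rose 1.83-fold and CHAC1, which degrades glutathione, 2.03-fold. NRF2 targets and detoxifying enzymes fell in 16 of 31 cases and rose in 6, or in 2 with library totals. The median of that list was −0.17, against −0.26 in the Fn14alpha knockout and 0.03 between the knockouts. FTL, the ferritin light chain, fell from 1824 ± 135 to 637 ± 90.7 FPKM (−1.40 ± 0.09, edgeR adjusted p = 1.94e-12). MGST1, a microsomal glutathione transferase on chromosome 12, had 1 count left against 2063 in WT (ratio 1850, 95% counting interval 332 to 73240). Targets of p53 fell in 16 of 27 cases and rose in 3, or in 0 with library totals. Their median was −0.25, against −0.48 in the Fn14alpha knockout and 0.09 between the knockouts. The falls of the NRF2 and p53 lists were therefore not particular to the Fn14 knockout. CDKN1A, the p21 inhibitor, was 2.46-fold lower, at 17.7 ± 1.06 FPKM against 18.5 ± 1.02 in the Fn14alpha knockout and 47.4 ± 2.48 in WT. The death receptor TNFRSF10A was 5.79-fold lower. Glycolysis and hypoxia genes were higher in 7 and lower in 9 of 28 cases, near the shares of all tested genes, 26.6% higher and 26.3% lower.

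Among developmental pathways, Notch genes fell in 10 of 15 cases and rose in 2 (median −1.07). The shares of all tested genes, 26.6% higher and 26.3% lower, are the background for the list counts of this paragraph. NOTCH3, the receptor of mural cells, fell from 1.78 ± 0.273 to 0.623 ± 0.104 FPKM, and the targets HES1 and HES4 were 2.99-fold and 3.76-fold lower. In the Fn14alpha knockout HES1 and HES4 were above WT, at 3.60 ± 0.408 and 9.85 ± 1.12 FPKM, and the knockouts differed by −2.50 ± 0.19 and −3.43 ± 0.25 (edgeR adjusted p = 4.13e-11 and 4.83e-11). Wnt genes went both ways (11 higher, 12 lower of 28). The non-canonical ligand WNT5A rose 3.04-fold and its receptor ROR1 6.05-fold, from 0.963 ± 0.0613 to 5.39 ± 0.719 FPKM. Of 23 activin and BMP genes 8 were higher and 8 lower. The activin antagonist FST fell 4.51-fold, the BMP antagonist GREM1 2.63-fold and the stress cytokine GDF15 9.68-fold, while the activin subunit INHBB rose 5.40-fold. Growth factor genes and their receptors were higher in 13 and lower in 16 of 37 cases: IGF2 rose 2.77-fold and IGFBP5 5.33-fold, and both also rose in the Fn14alpha knockout (IGF2 to 9.29 ± 0.322 FPKM from 3.84 ± 0.108), while FGFR3 fell 3.45-fold. Axon guidance genes were higher in 10 and lower in 15 of 36, with EFNB2 2.96-fold and SEMA5A 6.99-fold higher and NTN1 24.5-fold lower. Of 66 HOX, T-box and other developmental regulators 29 were lower and 21 higher. SOX9 rose 2.85-fold and FOXC2 3.38-fold, and TBX1 was 22.96-fold lower, whereas its level in the Fn14alpha knockout was 4.67 ± 0.344 FPKM against 0.565 ± 0.184 in WT.

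Histone messages, most of which carry no poly(A) tail, went both ways. H1-2 was at 133, 119, 124 and 150 FPKM in WT and at 23.6, 11.7, 19.3 and 13.7 in the Fn14 knockout, and H2AC6 at 27.8 to 28.8 and 2.23 to 3.33 (−3.24 ± 0.10, edgeR adjusted p = 5.33e-18). H1-4 was higher, with 124 counts in WT and 399 in the Fn14 knockout (1.86 ± 0.49, edgeR adjusted p = 0.0045), as was H3C2 with 42 and 93 (1.32 ± 0.42, edgeR adjusted p = 0.0114), which lies in a cluster of adjacent higher histone genes. Without Fn14 knockout replicate 3 H3C2 was no longer called (0.79, edgeR adjusted p = 0.111, range over its alternatives 3.55e-04 to 0.111). Over the 7 tested RNAs of the list of non-polyadenylated RNAs 2 were higher and 3 lower. The summed FPKM of that list was 188 to 217 in WT and 46.2 to 127 in the Fn14 knockout. Its part in other results was not tested. Mitochondrial mRNAs were higher in 1 and lower in 1 of 13 cases, against 26.6% and 26.3% of all tested genes.

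Markers of other cell types passed the count filter in unequal parts. Hepatocyte markers had 2 tested members of 15, endothelial markers 5 of 15, leukocyte markers 6 of 15 and neural and glial markers 8 of 16. Of the 6 leukocyte markers 3 were higher and 1 lower, and 1 was higher and 1 lower with library totals. Over all tested genes 26.6% were higher and 26.3% lower. Cholangiocyte and epithelial markers had 6 tested members of 15, 2 higher and 3 lower, and their summed FPKM was 85.8 to 97.3 in WT and 67.6 to 90.4 in the Fn14 knockout. The 13 hepatocyte markers that were not tested had at most 24 counts over a group, and 5 of them had 0 in all 8 libraries. Summed over the tested markers, leukocyte FPKM were 62.8 to 68.6 in WT and 30.2 to 32.9 in the Fn14 knockout, nearly all from LCP1. Endothelial markers summed to 18.3 to 20.7 and 10 to 11.2 FPKM, hepatocyte markers to 3.04 to 3.58 and 0.86 to 1.68, and neural and glial markers to 7.36 to 8.57 and 36.4 to 40.3. Of 8 tested neural and glial markers 4 were higher and 4 lower, with the adhesion molecule NCAM1 at 15 counts in WT and 275 in the knockout and the neurofilament gene NEFL at 21 and 295. In bulk RNA a change in the share of some cells and a change in the RNA per cell cannot be told apart.

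**Figure D5:**
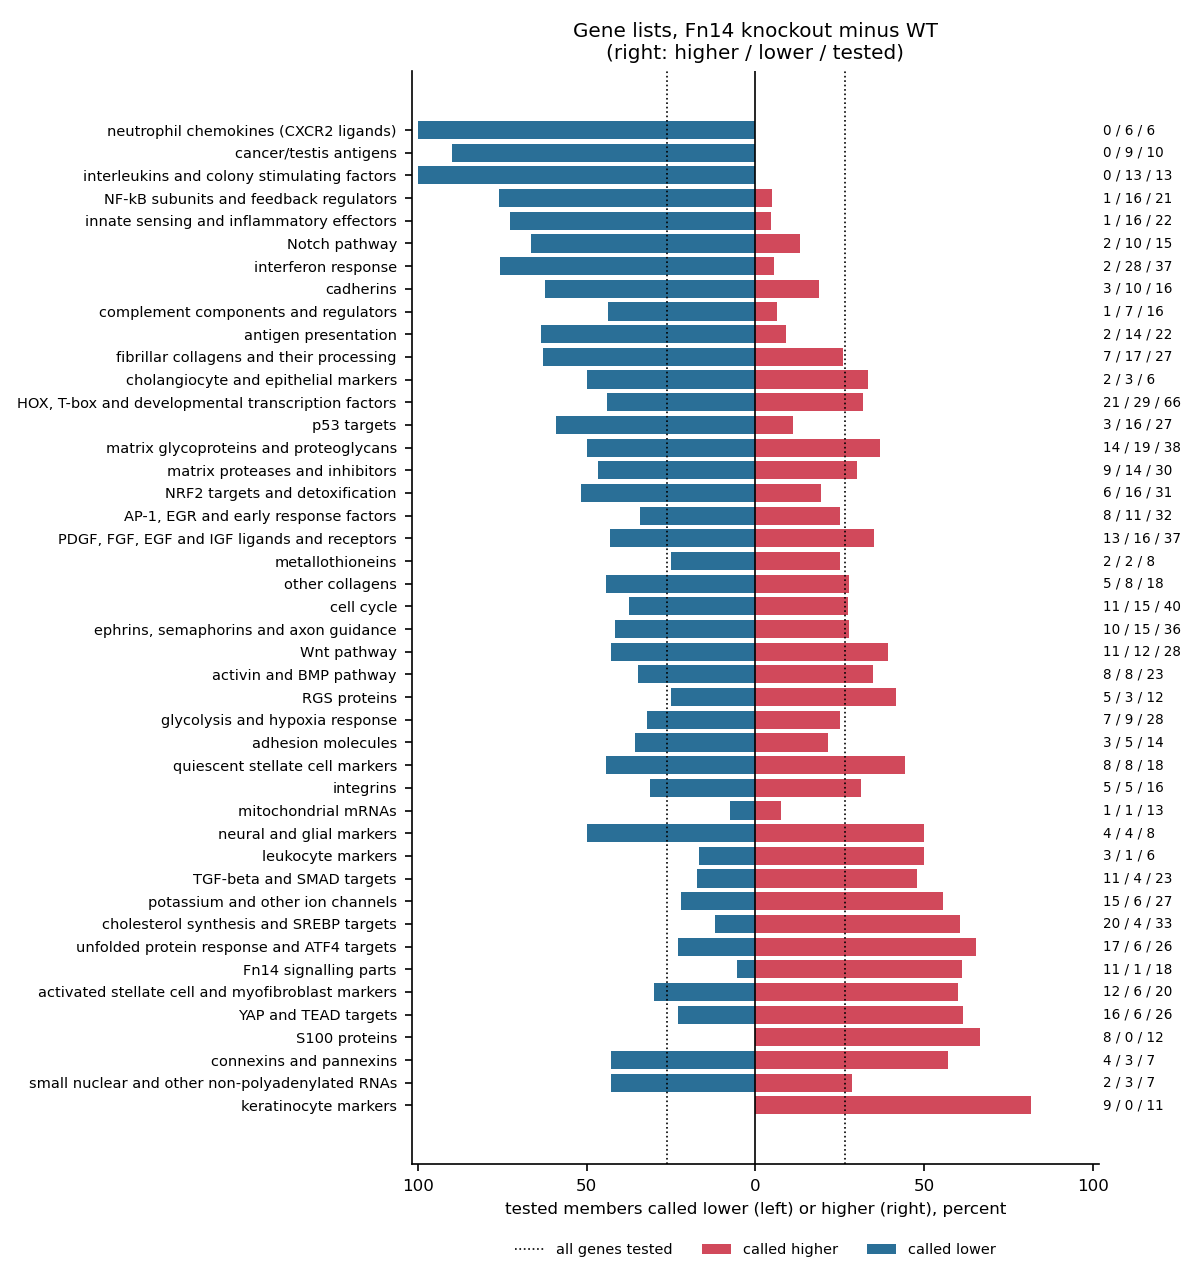
Share of the tested members of each gene list that was called higher (right, red) or lower (left, blue) in the Fn14 knockout, for lists with at least 6 tested members, ordered by median log2 fold change, with the counts higher / lower / tested at the right. Dotted lines mark the shares among all genes tested, 26.6% higher and 26.3% lower. Chemokines, interleukins, NF-kB regulators and interferon genes extend far to the left and keratinocyte markers, S100 genes and YAP targets to the right.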

How the data were processed

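Poly(A) RNA of 16 LX-2 libraries was sequenced. Counts per gene were deposited by the authors as whole numbers, and the submitters' processing notes name HISAT2 2.0.1, HTSeq 0.6.1, cutadapt 1.9.1, FastQC 0.10.1, DESeq2 and the builds hg38 and GRCh38.p13. FPKM values were deposited by the authors beside the counts and were used for levels. For the annotation release and the strand setting, nothing is given in the labels or notes.

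The 16029 of 61806 genes that passed edgeR's filterByExpr were fitted with edgeR 4.0.16 (TMM, robust quasi-likelihood, all 16 libraries, common dispersion 0.0075) and the Fn14 knockout was tested against WT and against the Fn14alpha knockout. Replicate pairs differed by a chi-square of 2.3 to 39 per degree of freedom, so each library was counted as its own replicate. Alternatives used library totals, DESeq2 1.42.0, limma 3.58.1 on log2(FPKM + 1), no filter, the 8 libraries alone, a replicate block, each library left out, both outlying libraries left out, and the median of 20 neighbours on each side removed. Counting intervals cover counting error only.

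The members, gene lists, block rules and motifs were chosen with earlier results of these data known. Genes named came from the 25 largest called changes each way at 2 FPKM or more without overlap between groups, up to 4 called and 2 uncalled members per list, up to 4 genes per segment or cluster, and those within 500 kb of TNFRSF12A. CXCL2, NFKBIA, COL1A1, FN1, VIM, PCDHB2 and RASA3 lie outside that rule and were chosen after their values were seen. DES, EIF1AY, TXLNGY, KDM5D, NLGN4Y and UTY were also named after their values were seen and were left out of the check of named genes under the alternatives. SCD, KRT8, IFITM3, B2M, TLR2, MT2A and MT1A lie near 0, changed sign between settings and were dropped after their values were seen. A longer form of the kB motif was also searched while choosing. Where a gene has several RefSeq windows, the one that holds the motif is printed, and a gene counts as holding it when any window does.

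The fit and the block search were tested on simulated data. A first block test, with shifts near the threshold, recovered too few segment genes to pass, and the larger simulated shift was then raised. Shifts near the threshold were recovered only in small part, so segments are likely undercounted.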

Additional observations from a re-analysis of the deposited data

Results flagged for a closer look

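Within a group of 4 libraries, a single library stood far from the other 3 in 19 of 304 groups checked (6.2%), while chance gives about 1 in 20. The library was WT replicate 4 in 6 cases and Fn14 knockout replicate 1 in 4. A library stood above the other 3 for SERPING1 in Fn14 knockout replicate 4 (0.06 FPKM against 0.00 to 0.01), PSMB9 in Fn14 knockout replicate 1 (3.71 FPKM against 2.23 to 2.41), COL1A1 in Fn14 knockout replicate 2 (204.85 FPKM against 192.47 to 193.41), MMP1 in WT replicate 4 (67.21 FPKM against 53.35 to 55.04), HMGB2 in WT replicate 4 (274.64 FPKM against 205.38 to 216.64), SQLE in WT replicate 4 (36.47 FPKM against 32.56 to 32.79), H2AC6 in WT replicate 1 (28.77 FPKM against 27.76 to 27.92) and ESM1 in WT replicate 4 (77.19 FPKM against 62.30 to 64.34). A library stood below the others for TRAF3 in WT replicate 4 (4.91 FPKM against 5.48 to 5.56), MAPK8 in Fn14 knockout replicate 1 (6.26 FPKM against 6.65 to 6.68), TNFAIP6 in WT replicate 1 (4.18 FPKM against 4.49 to 4.54), BHLHE40 in Fn14 knockout replicate 1 (22.60 FPKM against 25.96 to 26.28) and TRIB3 in Fn14 knockout replicate 4 (14.55 FPKM against 17.51 to 17.57). Where the other 3 libraries read 0, the lone reading was 1 or 2 counts: CSF3 in Fn14 knockout replicate 1 (0.03), S100A8 in WT replicate 3 (0.07), S100A9 in WT replicate 4 (0.11), KRT1 in WT replicate 1 (0.03), HOXD3 in Fn14 knockout replicate 4 (0.03) and MGST1 in Fn14 knockout replicate 3 (0.01) FPKM. In each of these genes the values of the Fn14 knockout and WT libraries did not overlap.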

How the results depend on the processing

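The number of called genes lay between 8012 and 8867 when each library was left out in turn (3950 to 4399 higher, 4013 to 4468 lower), and at least 2-fold changes between 2134 and 2230 (660 to 731 higher, 1426 to 1500 lower). TNFRSF12A ranged from −1.84 to −1.75, genes in segments from 2714 to 2821, genes in clusters from 265 to 292 and single-gene changes from 1395 to 1460. Of the 8472 calls, 8327 were shared in direction with DESeq2, 7929 with both outlying libraries left out, 7412 with library totals and 7294 with limma on FPKM, with 0 in the other direction. On the log2(FPKM + 1) scale, which understates changes of low genes, limma gave 521 changes of at least 2-fold (158 higher, 363 lower), and 36.2% of its calls were higher. With the median of neighbouring genes removed 2809 genes were higher, 446 of them at least 2-fold, and 5428 calls were shared, while 156 turned. A running median of at least 0.5 left 1055 genes in segments. Clusters held 683 genes at 2 adjacent genes and 111 at 4, with 1099 and 1516 single-gene changes. At an absolute log2 fold change of 0.5 clusters held 1451 genes and 2614 were single-gene changes.

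Of the 153 named genes run under the alternatives, ACTA2, which was not called, stood at −0.02 with library totals and at −0.02 with limma. TRIB3 lost its call (0.09) and PTX3 and COL6A1 gained one (0.28 and 0.25) with the neighbours' median removed. PTX3 also passed the test with both outlying libraries left out, without a count filter, without Fn14 knockout replicate 3 and without WT replicate 4 (0.20 to 0.27), and COL6A1 with DESeq2, without Fn14 knockout replicate 1 and without WT replicate 3 (0.13 to 0.19). H3C2 lost its call without Fn14 knockout replicate 3 (0.79). With the replicate block 8171 of the calls were shared and none of the 153 genes changed. Deviations of same-numbered libraries correlated at −0.4, 0.1, 0.21 and −0.29, so the numbers do not pair the samples. For genes with few counts, depth limits the size of the fold.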
